A study of Homo sapiens with 4 samples.

Results

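The regions described here are the stronger distal HIF-1α binding peaks of H1299 cells. They are the peaks of the HIF-1α list with a score of at least 70 that lay clear of every transcription start site (TSS) by the 500 bp window of the rule, with 1 start taken for each annotated gene, protein-coding or not. Of the 4054 HIF-1α peaks, 486 had such a score and 426 of these lay outside the windows. By score, 381 of the 426 fell from 70 to under 100, 32 from 100 to under 200, and 13 at 200 and up. The score was the authors' value and chose the members, so scores and distances to the TSS used in the rule are descriptions. Its scale was not defined in the sources used here, and the list began at 50.02 with a median of 56.4. Just inside the limit were 70.03 (upstream of PDIA5), 70.1 (an exon of FMN1) and 70.1 (an intron of PDC-AS1). Just outside were 69.99 (an intron of ANKS6), 69.93 (ANKFN1) and 69.91 (ITSN1). None of these 6 peaks overlapped a HAUSP peak of H1299.

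The study measured binding by ChIP-seq, in which DNA bound to a protein in cross-linked chromatin is recovered with an antibody and sequenced. HIF-1α was precipitated from H1299, a human lung cancer cell line, and HAUSP from H1299 and from MDA-MB-231, a human breast cancer cell line, all grown in DMEM with fetal bovine serum. Each list came from 1 library, so no replicate error could be given and no comparison below is a test. The oxygen level of the cultures is not named for these libraries in the sources used here, no treatment or genetic change is labelled, and the depth behind a peak is unknown. Shares carry exact 95% Clopper-Pearson intervals and medians carry exact binomial intervals, both of which cover counting error only.

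HIF-1α is the oxygen-regulated subunit of the transcription factor HIF-1. It pairs with ARNT, and the pair reads the core sequence ACGTG of the hypoxia response element. Its known targets act in glucose uptake and glycolysis, iron uptake, collagen modification and the restraint of mTOR signalling, and it binds enhancers as well as promoters. HAUSP, also called USP7, is an enzyme that removes ubiquitin from proteins, and the study examined it as a partner of HIF-1α on chromatin.

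Cores of 11 members with high scores are shown to let their surroundings be compared. Each line gives 29 bases of GRCh37 (hg19) around the ACGTG nearest to the centre of the peak, read 5′ to 3′ on the strand that holds ACGTG, which is in capitals. The first 4 lie on the plus strand and the others on the minus strand.
PFKFB4 intron, chr3:48594704-48594732: gggacgaggcctACGTGacccgcacggcc
SCIRT locus, chr6:44041212-44041240: cctccattcgctACGTGcagaatggtccg
Far upstream of CREB1, chr2:208259639-208259667: ctaaaatgtgctACGTGcaagacaatcag
PTPRR intron, chr12:71039387-71039415: gtggtgttagccACGTGgcttggatttct
VGLL4 intron, chr3:11684089-11684117: cggacatcctctACGTGcgatttgaaaaa
ALDOA intron, chr16:30076871-30076899: cacccccctcggACGTGactcggaccaca
PGK1 intron, chrX:77359550-77359578: ggtactagtgagACGTGcggcttccgttt
Upstream of KIAA2013, chr1:11990033-11990061: ggtacgtgctgcACGTGctgtggacagtt
IL1RAP intron, chr3:190284437-190284465: aggcaaatgagtACGTGccagatgggctg
Upstream of DDIT4, chr10:74020778-74020806: gggaagcgggggACGTGacttggagaacg
SLC2A3 intron, chr12:8123410-8123438: gcagcggccgggACGTGccgtgtggcacg
These regions share the core, and some share bases next to it, such as ct before the core at PFKFB4, SCIRT, CREB1 and VGLL4. Likeness of the wider sequence was not measured.

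Several members held more than 1 core. The next lines show 150 bases on the plus strand of GRCh37 from 3 such regions, to show how close the cores lay, with every ACGTG and GCGTG of either strand in capitals (a core on the minus strand reads as its reverse complement).
Upstream of KIAA2013, chr1:11989973-11990122: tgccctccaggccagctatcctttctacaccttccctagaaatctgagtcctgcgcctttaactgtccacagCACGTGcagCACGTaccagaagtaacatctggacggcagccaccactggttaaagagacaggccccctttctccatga
Upstream of DDIT4, chr10:74020718-74020867: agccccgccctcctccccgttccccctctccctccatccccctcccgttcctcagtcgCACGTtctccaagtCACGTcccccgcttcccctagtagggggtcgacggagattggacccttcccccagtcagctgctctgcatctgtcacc
Upstream of KCMF1, chr2:85173689-85173838: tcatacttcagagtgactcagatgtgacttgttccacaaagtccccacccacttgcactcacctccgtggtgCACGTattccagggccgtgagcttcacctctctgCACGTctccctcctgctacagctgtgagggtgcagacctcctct
In the KIAA2013 region the first core is part of CACGTG, a palindrome that reads ACGTG on both strands.

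All 13 members at 200 and up shared 1 bp or more with a HAUSP peak of H1299 (interval 75.3 to 100%). From 100 to 200 the overlap was 12 of 32 peaks, or 37.5% (interval 21.1 to 56.3), and from 70 to 100 it was 16 of 381, or 4.20% (2.42 to 6.73). Of all HIF-1α peaks in the list, 2.71% overlapped, and of the 3484 distal peaks with a score under 70 only 13 did so, or 0.373%. Over all members the count was 41 of 426, or 9.62% (7.0 to 12.8). In steps of 10 the share was 1.77% from 70 to 80, 7.46% from 80 to 90 and 18.8% from 90 to 100, so it was higher at each step within the lowest class as well. Peaks with a score of at least 70 at TSS windows overlapped in 42 of 60 cases, or 70% (56.8 to 81.2). Their scores were higher, with a median of 113.15 (90.39 to 174.14) against 75.49 (74.55 to 76.38) for the members. The part of the score in this difference was not tested.

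HAUSP peaks of MDA-MB-231 overlapped 27 members, or 6.34% (4.22 to 9.09), against 1.63% of all HIF-1α peaks. By score the counts were 8 of 381, 8 of 32 and 11 of 13. These 27 were all among the 41 that overlapped a HAUSP peak of H1299, and 0 of the other 385 members overlapped a peak of MDA-MB-231, which allows a share of up to 0.954% by the exact interval. HAUSP peaks of H1299 at no HIF-1α peak overlapped one of MDA-MB-231 in 38.0% (35.3 to 40.7) of 1269 cases, against 65.9% (49.4 to 79.9) of the 41 at members. The HAUSP peaks at members also had higher scores, with a median of 170.62 against 69.54. Among HAUSP peaks scoring 100 or more the shares were 82.1% (63.1 to 93.9) of 28 at members and 76.8% (71.8 to 81.3) of 319 elsewhere, and these intervals overlap.

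**Figure D1:**
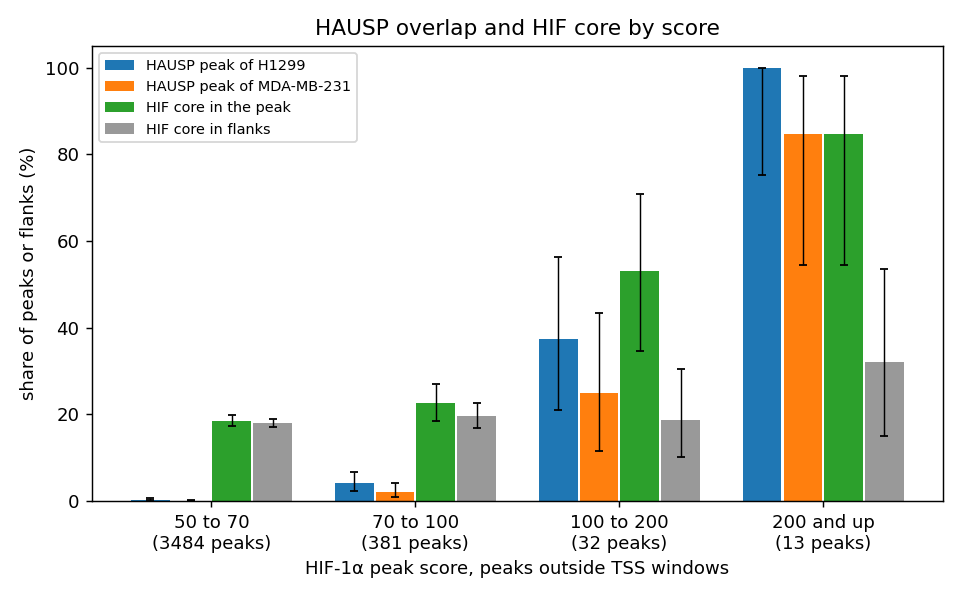
Share (%) of HIF-1α peaks outside TSS windows, by score, that overlapped a HAUSP peak of H1299 or MDA-MB-231 or held ACGTG, the HIF core, beside the share of flanks of the same width that held it. Bars are shares and lines are exact 95% intervals, and the overlap with HAUSP of H1299 goes from 4.20% of the 381 peaks from 70 to 100 to all 13 peaks at 200 and up.

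Of the 41 overlapping members 38 lay wholly inside the HAUSP peak, and the centres of both peaks were a median of 108 bp apart (range 1 to 1026). The HAUSP peaks of H1299 were wider, with a median of 1140 bp against 624 bp for these members. Across the 41 members the scores of HIF-1α and of HAUSP in H1299 had a Spearman's rho of 0.53, and across the 27 members with HAUSP in MDA-MB-231 it was 0.41. These are descriptions over regions of the same libraries, chosen by one of the scores.

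ACGTG was present on either strand in 114 members, or 26.8% (22.6 to 31.2). It was present in 20.7% of all HIF-1α peaks and in 20.0% of the members' flanks, which were 2 regions as wide as the peak, each set off from it by 2000 bp. From 70 to 100 it was present in 22.6% (18.5 to 27.1) of the peaks and 19.7% of the flanks. The share was 53.1% (34.7 to 70.9) from 100 to 200, where the flanks had 18.8%, and 84.6% (54.6 to 98.1) at 200 and up, where they had 32.0%. Distal peaks with a score under 70 held it in 18.5%, and their flanks in 18.1%.

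The core was more frequent in members that overlapped HAUSP, both from 70 to 100 and from 100 to 200. The 41 members that met a HAUSP peak of H1299 held ACGTG in 35 cases, or 85.4% (70.8 to 94.4), and their flanks in 27.2% (17.9 to 38.2). The 385 members without such a peak held it in 79 cases, or 20.5% (16.6 to 24.9), and their flanks in 19.2%. From 70 to 100 the core was present in 13 of 16 peaks with HAUSP, or 81.3% (54.4 to 96.0), and in 73 of 365 without, or 20.0% (16.0 to 24.5). From 100 to 200 it was present in 11 of 12 peaks with HAUSP and in 6 of 20 without, or 30% (11.9 to 54.3). At 200 and up no member was without HAUSP. The scores also differed within a class, with a median of 85.7 (77.69 to 93.43) with HAUSP and 74.16 (73.51 to 75.1) without from 70 to 100, and of 145.58 (108.25 to 183.45) and 112.715 (106.83 to 122.45) from 100 to 200. In steps of 10 from a score of 70 the core was present in 18.4, 31.3 and 40.6% of all members, and in 17.3, 27.4 and 30.8% of those without HAUSP. The part of the score in the difference by HAUSP was not tested. Pooled over scores, the members without HAUSP held the core about as often as their own flanks. From 100 to 200 the shares without HAUSP were 30% (11.9 to 54.3) of peaks and 20.0% (9.05 to 35.6) of flanks, and these intervals overlap. Over all members, the interval of those with HAUSP lay above those of the members without HAUSP and their flanks.

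**Figure D2:**
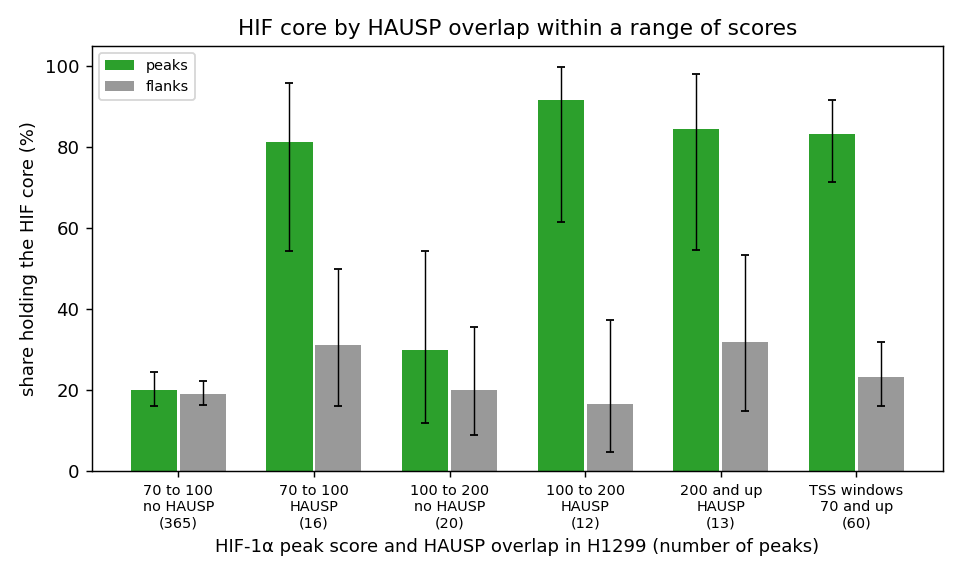
Share (%) of peaks and of their flanks that held ACGTG, by HIF-1α score and overlap with HAUSP of H1299, with the number of peaks under each pair of bars and exact 95% intervals as lines. Peaks from 70 to 100 with HAUSP held the core in 81.3% and those without in 20.0%, and peaks of at least 70 at TSS windows held it in 83.3%.

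A core near the centre of the peak was more frequent where HAUSP overlapped. An ACGTG lay within 100 bp of the centre in 22 of the 41 members with HAUSP, or 53.7% (37.4 to 69.3), and in 11.1% of their flanks. Without HAUSP it did so in 31 of 385, or 8.05% (5.54 to 11.2), and in 6.23% of flanks. The core nearest to the centre was a median of 57.5 bp from it (28.5 to 114.5, 35 peaks) with HAUSP and 125 bp (97.0 to 162.5, 79 peaks) without. From 70 to 100 these medians were 35.5 bp (8.5 to 129.5, 13 peaks) and 125 bp (100.5 to 175.5, 73 peaks), and from 100 to 200 they were 95 bp (16.5 to 132.5, 11 peaks) and 59.75 bp (24.5 to 477, 6 peaks). In members at no transcript start they were 89.5 bp (41.5 to 128, 26 peaks) and 125 bp (97.0 to 164.5, 78 peaks). The intervals of this distance with and without HAUSP overlap over all members, within each class and away from starts. Of the members with HAUSP 16, or 39.0% (24.2 to 55.5), held 2 or more separate cores, counting a palindrome once, against 8 of 385, or 2.08% (0.901 to 4.05).

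All pentamers, read on both strands, were ranked by the share of peaks that held them minus the share of flanks. ACGTG ranked 1 among the 41 members with HAUSP, and again among the 16 of these with a score under 100. It ranked 203 among the members without HAUSP, where TAATA came first with 88.1% of peaks against 78.4% of flanks. After ACGTG in the members with HAUSP came CGTGC, which overlaps it by 4 bases (68.3% against 25.9%). Then came GCCGC (51.2% against 11.1%) and ACGTA (63.4% against 23.5%). Read on the other strand ACGTA is TACGT, which can also overlap ACGTG by 4 bases. By score, ACGTG ranked 1 from 100 to 200. Among the 13 members at 200 and up it ranked 5, and AGCGC and GCCGC shared rank 1. Of the 68 cores in these members, with a palindrome counted on each strand, 29 were followed by C, or 42.6% (30.7 to 55.2), against 18.2% (11.5 to 26.7) of the 110 cores in members without HAUSP.

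Other words were searched on both strands. GCGTG, the second form of the HIF core, was present in 41.5% (26.3 to 57.9) of the members with HAUSP and 35.8% of their flanks. In members without HAUSP it was present in 10.9% (7.98 to 14.5), fewer than the 17.8% (15.2 to 20.7) of their flanks. TGANTCA, the site of AP-1 factors such as JUN and FOS, was present in 18 of the 41, or 43.9% (28.5 to 60.3), against 14.8% (7.90 to 24.4) of flanks, and in 24.9% (20.7 to 29.6) of the members without HAUSP, against 19.1%. From 70 to 100 it was present in 8 of 16 members with HAUSP, or 50% (24.7 to 75.3), and in 24.1% of the 365 without, and from 100 to 200 in 5 of 12, or 41.7%, and in 8 of 20, or 40%. The E-box CACGTG, which contains the core, was present in 17.1% (7.15 to 32.1) of those with HAUSP and 3.70% of their flanks. ATGGCGG, a YY1 site, was present in 2 of the 41, or 4.88%, against 3.70% of flanks. The 60 HIF-1α peaks with a score of at least 70 at TSS windows held it in 23.3% (13.4 to 36.0). GGAATG, read by TEAD factors, was present in 36.6% (22.1 to 53.1) of the members with HAUSP against 25.9% of flanks. Without HAUSP the shares were 27.5% and 29.0%. TGTGGTT, read by RUNX factors, was present in 17.1% (7.15 to 32.1) of the members with HAUSP and 8.64% of their flanks. Without HAUSP it was present in 11.4% and 11.9%. The cAMP response element TGACGTCA was present in 0 of 426 members (interval up to 0.862%). It was also rare in their flanks (0.235%) and in all HIF-1α peaks (0.271%). CACAG, the word of the HIF ancillary sequence, lay within 30 bp of 23.5% (14.1 to 35.4) of the cores with HAUSP and 19.1% (12.2 to 27.7) of those without.

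The members were mostly AT-rich. Their median GC content was 36.4% from 70 to 100, 39.4% (37.1 to 44.1) from 100 to 200 and 48.9% (44.4 to 65.6) at 200 and up. Those with HAUSP had a median of 48.2% (46.2 to 53.0) and those without 36.3% (35.9 to 36.7), while the flanks had 43.3% and 38.0%. The peak exceeded its own flanks in GC content in 31 of 41 members with HAUSP and in 147 of 385 without. The ratio of observed to expected CpG was 0.403 (0.265 to 0.511) with HAUSP and 0.153 without. ACGTG contains a CpG. GC content and the CpG ratio were both higher in the members with HAUSP, and their part in the share of the core was not tested. Among the 29 members with HAUSP that touched no start of any transcript, the median GC content was 47.2% in peaks and 47.0% in flanks. In 19 of these 29 the peak exceeded its own flanks in GC content. Their median CpG ratio was 0.348 in peaks and 0.256 in flanks, with intervals that overlap. The core was present in 26 of these peaks, or 89.7% (72.6 to 97.8), against 29.8% of flanks. The part of GC content and the CpG ratio in this difference was not tested either.

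**Figure D3:**
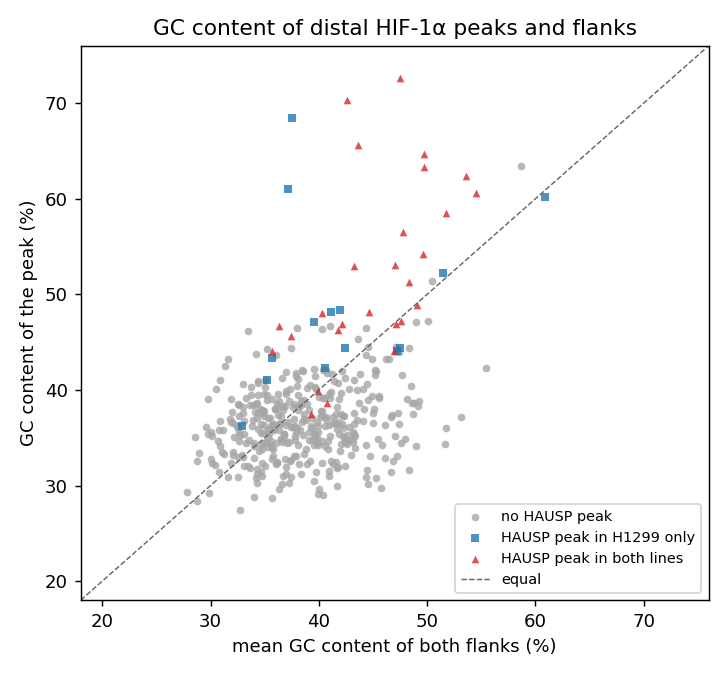
GC content (%) of each member against the mean of its flanks (%), with members without a HAUSP peak in grey, with HAUSP in H1299 only as squares and in both lines as triangles. The dashed line marks equal values, and 31 of the 41 members with HAUSP lie above it.

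The centre of the peak lay in an intron for 235 members, or 55.2% (50.3 to 60.0), in an exon for 34 and between genes for 157, against 57.0% in introns for all HIF-1α peaks. Introns took 212, 16 and 7 peaks of the classes in order of score, exons 26, 4 and 4, and the space between genes 143, 12 and 2. Exons held 10 of 41 members with HAUSP, or 24.4% (12.4 to 40.3), and 24 of 385 without, or 6.23% (4.03 to 9.13). Among members at no transcript start they held 4 of 29, or 13.8% (3.89 to 31.7), and 21 of 372, or 5.65% (3.53 to 8.50), and these intervals overlap. The median distance from the centre to the nearest gene-level TSS was 27558 bp from 70 to 100, 17312 bp from 100 to 200 and 4733 bp (1426 to 125633) at 200 and up. With HAUSP it was 5249 bp (3444 to 9343) and without it was 29371 bp (24569 to 34833). A protein-coding TSS lay within 50 kb of 28 of the 41, or 68.3% (51.9 to 81.9). Without HAUSP it did so for 107 of the 385, or 27.8% (23.4 to 32.6), and over all HIF-1α peaks for 33.2%. Of the members 2 lay within 50 kb of a HIF-1α peak with a score of at least 70 at a TSS window. Another member lay within 100 kb of 14 members. Neither share was computed over all HIF-1α peaks, so these counts are not called few or many.

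**Figure D4:**
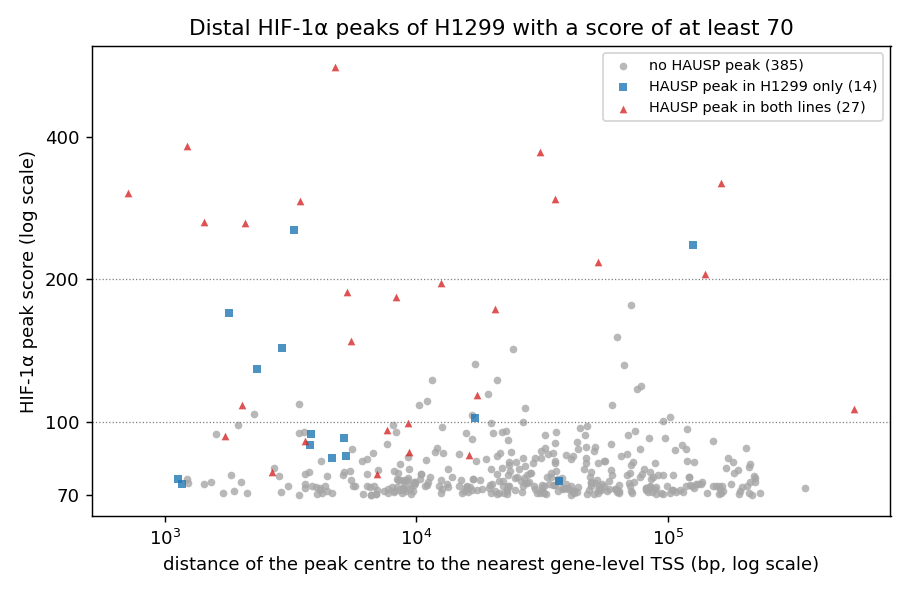
HIF-1α score against the distance of the peak centre to the nearest gene-level TSS in bp, both on log scales, for the 426 members, with dotted lines at scores of 100 and 200. Grey points had no HAUSP peak, squares had one in H1299 only (14) and triangles in both lines (27), and all 13 points above 200 had a HAUSP peak.

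Distal by the start of the gene did not always mean far from a start. A window of 500 bp around the start of some annotated transcript was touched by 25 members, or 5.87% (3.83 to 8.54). The share was 6.02% of all HIF-1α peaks, which include those at gene-level windows. Of the distal peaks with a score under 70 it was 75 of 3484, or 2.15% (1.70 to 2.69). The 25 members were 17, 2 and 6 of the classes, and 12 of them overlapped HAUSP of H1299. At 200 and up the 6 were at PFKFB4, the SCIRT locus, ALDOA, PGK1, RNF145 and CBX5, so 7 of the 13 lay at no annotated start.

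Enzymes of glycolysis gave 3 of the strongest members. The peak in PFKFB4, whose enzyme sets the level of fructose 2,6-bisphosphate, spanned chr3:48594472-48594958 and had the highest score, 561.08. Its core lay 3 bp from the centre, and the HAUSP scores there were 487.34 in H1299 and 178.31 in MDA-MB-231. The peak in ALDOA, the aldolase of glycolysis, spanned chr16:30076652-30077072 with a score of 303.77, a core 23 bp from the centre and HAUSP scores of 200.59 and 118.21. The peak in PGK1, phosphoglycerate kinase, spanned chrX:77359267-77359900 with a score of 295.54 and HAUSP scores of 1006.44 and 738.53, the highest at a member outside the centromere of chromosome 1. All 3 peaks lay in introns by the annotation, with their centres 265, 219 and 162 bp from the start of a transcript of the same gene, and their GC contents were 62.4, 70.3 and 65.6%.

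The other members at 200 and up were more varied. Scores of the HAUSP lists are given as deposited and are not on a common scale with each other. In VGLL4, a cofactor of TEAD factors, an intronic peak at chr3:11683563-11684320 scored 371.4 and had HAUSP scores of 565.39 and 464.15. Its 2 cores lay 161.5 bp or more from the centre. The SCIRT lncRNA locus, at chr6:44040926-44041403, scored 382.09 and had the highest GC content of any member, 72.6%. A peak 3444 bp upstream of KIAA2013 scored 292.13, with HAUSP scores of 441.57 and 189.36. In IL1RAP, the co-receptor of interleukin-1, an intronic peak scored 217.62, and its HAUSP peak ranked 78 in the MDA-MB-231 list (score 297.52) and 167 in the H1299 list (191.07). The peak at MTFP1, a mitochondrial fission gene, was in an exon of SEC14L2 1426 bp upstream of it and scored 264.28 with 3 separate cores. In SLC8A3, a sodium and calcium exchanger, an exonic peak scored 205.3 with 2 separate cores. The HAUSP score there was 390.53 in H1299 and 63.79 in MDA-MB-231.

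Among the 13 a few stood apart. The peaks at RNF145, a ubiquitin ligase (score 263.46), and at CBX5, which encodes the heterochromatin protein HP1α (254.14), held no ACGTG. CBX5 and the peak 134680 bp upstream of CREB1 (236.72) were those without a HAUSP peak in MDA-MB-231, and at the CREB1 peak the H1299 HAUSP score was 50.52, rank 1342 of 1379. The region at chr1:121483881-121485598 (318.99) lay within 1 Mb of an assembly gap at the centromere. It had the highest HAUSP score of both lists. Of its bases 164 lay in the gap, as did the whole flank of higher coordinates, and the GC content was 38.7% over the other bases of the peak and 40.8% in the remaining flank. Another peak near a centromere, on chromosome X (106.21), overlapped HAUSP in both lines and held no core. In all 23 members, or 5.40% (3.45 to 7.99), lay within 1 Mb of a gap of at least 50 kb, against 4.96% of all HIF-1α peaks. Of the 23 members, 6 overlapped HAUSP. Without these 23, HAUSP of H1299 overlapped 8.68% of the members, and the core was present in 85.7% (69.7 to 95.2) of the 35 members with HAUSP that remained.

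From 100 to 200 the 10 highest scores ran from 196.71 to 142.68. The highest lay 12754 bp upstream of DDIT4, an inhibitor of mTORC1 signalling, with HAUSP scores of 484.89 and 152.91, and it was 12742 bp from a HIF-1α peak at the promoter of that gene. The next was in SLC2A3, the glucose transporter GLUT3, 48065 bp downstream of its gene-level start, with a score of 188.24, 4 cores and HAUSP scores of 153.08 and 87.97. A peak in an intron of PTPRR, 8260 bp upstream of PTPRB, scored 183.45, and both genes encode receptor-type tyrosine phosphatases. It had HAUSP scores of 109.62 and 134.97. A peak 24460 bp upstream of KCMF1, a ubiquitin ligase, scored 173.44 and had a core 7 bp from the centre. Peaks upstream of the histone gene HIST1H4B (170.02) and in WFDC3 (143.24) overlapped HAUSP in H1299 only, and the peak nearest to SLC45A1 (147.92) in both lines. The 3 without any HAUSP peak were in KCNMA1, a potassium channel (176.42), in NSD1, a histone methyltransferase (151), and upstream of DNAH5, a dynein of cilia (142.68), and all 3 held ACGTG.

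The remaining members with HAUSP in both lines had lower scores. From 100 to 200 they were nearest to BZW1 (113.93), to WWC1, within an intron of TENM2 (108.25), and to ZXDA, the peak near the centromere of chromosome X. From 70 to 100 they were nearest to JUN, a subunit of AP-1 (99.22), DYNC2I1 (96.25), SPAG4 (93.43), ZNF311 (90.96), the integrin gene ITGB3 (86.26), ASAP2 (85.14), the kinetochore gene KNSTRN (78.32) and SGSM2 (77.69). Of these 8, SGSM2 alone held no ACGTG. The HAUSP scores at KNSTRN were 264.55 in H1299 and 190.23 in MDA-MB-231, and at ITGB3 they were 267.74 and 127.11, so HAUSP scores above the median of 170.62 occurred at HIF-1α scores under 100.

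A list of 72 known HIF-1 target genes was set against the nearest protein-coding TSS. The list was made with earlier results of these data known, so the shares are descriptions. A gene of the list was nearest for 10 members at 9 genes, or 2.35% (1.13 to 4.27) of the members. The share was 1.13% of all HIF-1α peaks and 0.660% (0.419 to 0.989) of the distal peaks with a score under 70. By class the 10 members were 5 of 381, 3 of 32 and 2 of 13. Of the 10 members 7 held ACGTG and 6 overlapped HAUSP of H1299. PFKFB4, ALDOA, DDIT4 and SLC2A3 are given above, and the PGK1 peak was not counted because the gene-level start of TAF9B was nearer. In PLOD2, a lysyl hydroxylase of collagen, a peak in an exon 2327 bp from the start scored 129.39 with a HAUSP score of 283.61 in H1299 and none in MDA-MB-231. A second peak in a PLOD2 intron, 105145 bp from the start, scored 73.16 and had neither a core nor HAUSP. The peak 1173 bp upstream of ANGPTL4, an inhibitor of lipoprotein lipase, scored 73.87, held a core and met a weak HAUSP peak of H1299 (50.71). The peak in TFRC, the transferrin receptor, scored 85.8 and held 2 cores but no HAUSP. The peaks nearest to MXI1, a MYC antagonist (71.41), and to CITED2, a CBP-binding inhibitor of HIF-1 (70.4), held no core and no HAUSP, and lay 77833 and 406980 bp from the start. A HIF-1α peak of at least 70 at the TSS window was present for 13 of the 72 genes. The share over all annotated genes was not computed.

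The 385 members without HAUSP made up most of the set and had fewer features in common. Of these 365 scored under 100, their median distance to a protein-coding TSS was 142892 bp (114801 to 172879), and 4 were nearest to a gene of the HIF list. Their median GC content was 36.3% and the core was present in 20.5%, while the distal peaks under 70 had 36.5% and 18.5%, with a median distance of 114225 bp (108270 to 123026). The density of members was highest on chromosome 6 (45 members, 0.263 per Mb). Chromosome 13 had 3 members, or 0.026 per Mb, and chromosome Y had 0. Densities of all HIF-1α peaks by chromosome were not computed, so these values are not a trait of the members. A word of 24 bases was shared with another member by 31 members, or 7.28% (5.0 to 10.2), against 28.9% (24.6 to 33.4) of the flanks on the side of lower coordinates, which describes how often repeated sequence occurred in them. The flanks were not matched to the peaks for repeated sequence in the comparisons above.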

How the data were processed

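The deposited files held 3 lists of peaks, of HIF-1α in H1299 and of HAUSP in H1299 and MDA-MB-231, with 1 library each. The fourth sample, an input library of H1299, was not used here. Per the study's methods and the submitters' processing notes, the authors aligned reads with Bowtie 0.12.7 to hg19, keeping those that mapped uniquely, and called peaks with MACS 1.4.2 at default parameters. The authors deposited start, end and a score for each peak. The control used in calling is not given in the sources used here.

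Starts were converted to count from 1. Genes came from GENCODE release 44, lifted to GRCh37, and sequence from that build. Overlaps were of at least 1 bp. Uncalled bases (N) were left out of GC content, and flanks that held any were left out. A centre in any exon was called exonic, otherwise intronic inside a gene. The reference did not mark repeats, so shared words of 24 bases were counted instead. Named regions are all members with a score of at least 200, the 10 highest from 100 to 200, those with HAUSP in both lines, those nearest to a gene of the HIF list, and 3 peaks on each side of the limit. The members, lists and comparisons were chosen with earlier results of these data known. Alternatives changed the TSS set, window, score, overlap, flanks, core and gaps. The measures were tested on simulated data, where 120 of 120 planted cores were found in 400 sequences. Apart from the planted cores these sequences held only A and T, so the test does not cover cores that arise by chance. Sequences were read with samtools 1.23.1 and pysam 0.24.0, intervals were computed with scipy 1.17.1, and tables and plots were made with pandas 2.3.3 and matplotlib 3.10.9 in Python 3.11.15.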

Additional observations from a re-analysis of the deposited data

How the results depend on the processing

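Of 83 alternatives over 13 results, 59 stayed within the interval of the value in the report or, for counts, within 1.5 times it. No paired analysis was possible because there was only 1 library behind each of the lists. A score of at least 80 left 144 members, with HAUSP of H1299 at 25.0%, HAUSP of MDA-MB-231 at 17.4%, ACGTG in 43.1%, a core within 100 bp of the centre in 21.5%, a median GC content of 37.5% (flanks 39.6%) and 6 members nearest to a gene of the HIF list. A score of at least 100 left 45 members, with the same values at 55.6%, 42.2%, 62.2%, 37.8%, 44.05% (flanks 41.5%) and 5, and a median distance of 17161 bp to the TSS. These moves come from leaving out the lower scores. The median distance over all members, 26512 bp, was 115671 bp with protein-coding genes only and 19581 bp with every transcript. With protein-coding genes only, 37.6% of centres were intronic. ACGTG was in 17.3% of flanks 5000 bp away. ACGTG or GCGTG was in 33.8% of members, and ACGTG was in 12.4% of the 200 bp around the centre. HAUSP peaks with a score of at least 100 overlapped 6.57% of members in H1299. The share of ACGTG in members with HAUSP of H1299 was 89.7% with every transcript start left out, 85.7% without members near gaps, 81.3% from 70 to 100 and 85.4% with an overlap of 50% of the peak. These splits by HAUSP, and a reading of starts as counted from 1, were chosen after the data were seen. The depth behind the peaks is unknown.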
